A study of Mus musculus with 4 samples.

Results

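The ligands and receptors of the vascular endothelial growth factor (VEGF) family were examined in whole mouse embryos at embryonic day 9.5 that lacked Cop1, whose product is a ubiquitin ligase acting on transcription factors such as JUN. The members are the ligand genes Vegfa, Vegfb, Vegfc and Pgf, the receptor kinase genes Flt1, Kdr and Flt4, and the coreceptor genes Nrp1 and Nrp2. Every probe set that the array platform's annotation assigns to exactly one of these symbols was taken, which gave 22 probe sets for the 9 genes out of 45101 on the array. Both genotype groups came from whole embryos. The control group consisted of 6 embryos that were wild type or heterozygous for Cop1 (+/+ or +/-), and the null group of 6 embryos without Cop1. For the strain, the sex of the embryos and the make of the null allele, nothing is given in the sources used here. Within each group the RNA was pooled, the pool was split, and each of the 2 portions went onto its own array, so 4 arrays were available. The spread within a group is therefore that between portions of one RNA pool, and no p-value below measures the variation between embryos.

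VEGF ligands guide the formation and growth of blood vessels. VEGF-A, the product of Vegfa, binds the receptor kinases FLT1 (VEGFR1) and KDR (VEGFR2), of which KDR carries most of the signal for endothelial growth, while FLT1 binds VEGF-A tightly, signals weakly and can act as a trap, in part as a soluble form made from shortened transcripts. VEGF-B and placental growth factor (PlGF, from Pgf) bind FLT1. VEGF-C binds FLT4 (VEGFR3) and, after processing, KDR. The neuropilins NRP1 and NRP2 bind both VEGF ligands and class 3 semaphorins and are found on vessels and on neurons.

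Values are log2 expression after the RMA normalization of the deposited table, and a difference is always the null mean minus the control mean in log2 units. The verbs rose and fell are used where the adjusted p in limma, over all 45037 tested probe sets, was under 0.05 with a fold of 1.5 or more. The arrays had medians between 6.03 and 6.10, and Pearson's r across probe sets was 0.998 within each genotype and 0.980 to 0.982 between genotypes. For Cop1 the control arrays read 11.35 and 11.26 and the null arrays 9.67 and 9.77, a difference of -1.58 (SE 0.08, limma adjusted p = 0.000728). The labels do not say whether this probe set reads the part of Cop1 that was deleted. Markers of embryonic blood, neurons and vessels were all well represented, with mean log2 levels on the 4 arrays of 11.03 to 11.24 for 9 primitive erythroid genes, 8.42 to 9.37 for 12 genes of early neurons and 8.28 to 8.61 for 22 endothelial genes.

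Of the 22 member probe sets, 9 rose in the null pool and 0 fell, against 6.76% of all tested probe sets that rose and 6.96% that fell. At an unadjusted p under 0.05 in limma, 14 members were higher and 0 were lower, against 20.4% and 22.6% of all tested probe sets. The rises lay in 4 of the 9 genes, the ligand genes Vegfa and Vegfc and the receptor genes Flt1 and Kdr. With each gene represented by its brightest probe set (highest mean over all 4 arrays), the same 4 rose, where 3.58% of all 18193 genes rose and 8.06% fell. They made up 5 of 7 ligand probe sets, 4 of 7 receptor kinase probe sets and 0 of 8 coreceptor probe sets. The median difference was 0.35 over the member probe sets and 0.01 over all probe sets. In 15 members both null arrays read above both control arrays, as they did for 32.6% of all probe sets, and in 1 member both read below, as for 32.7%. In the other 6 the arrays of the genotypes overlapped.

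**Figure D1:**
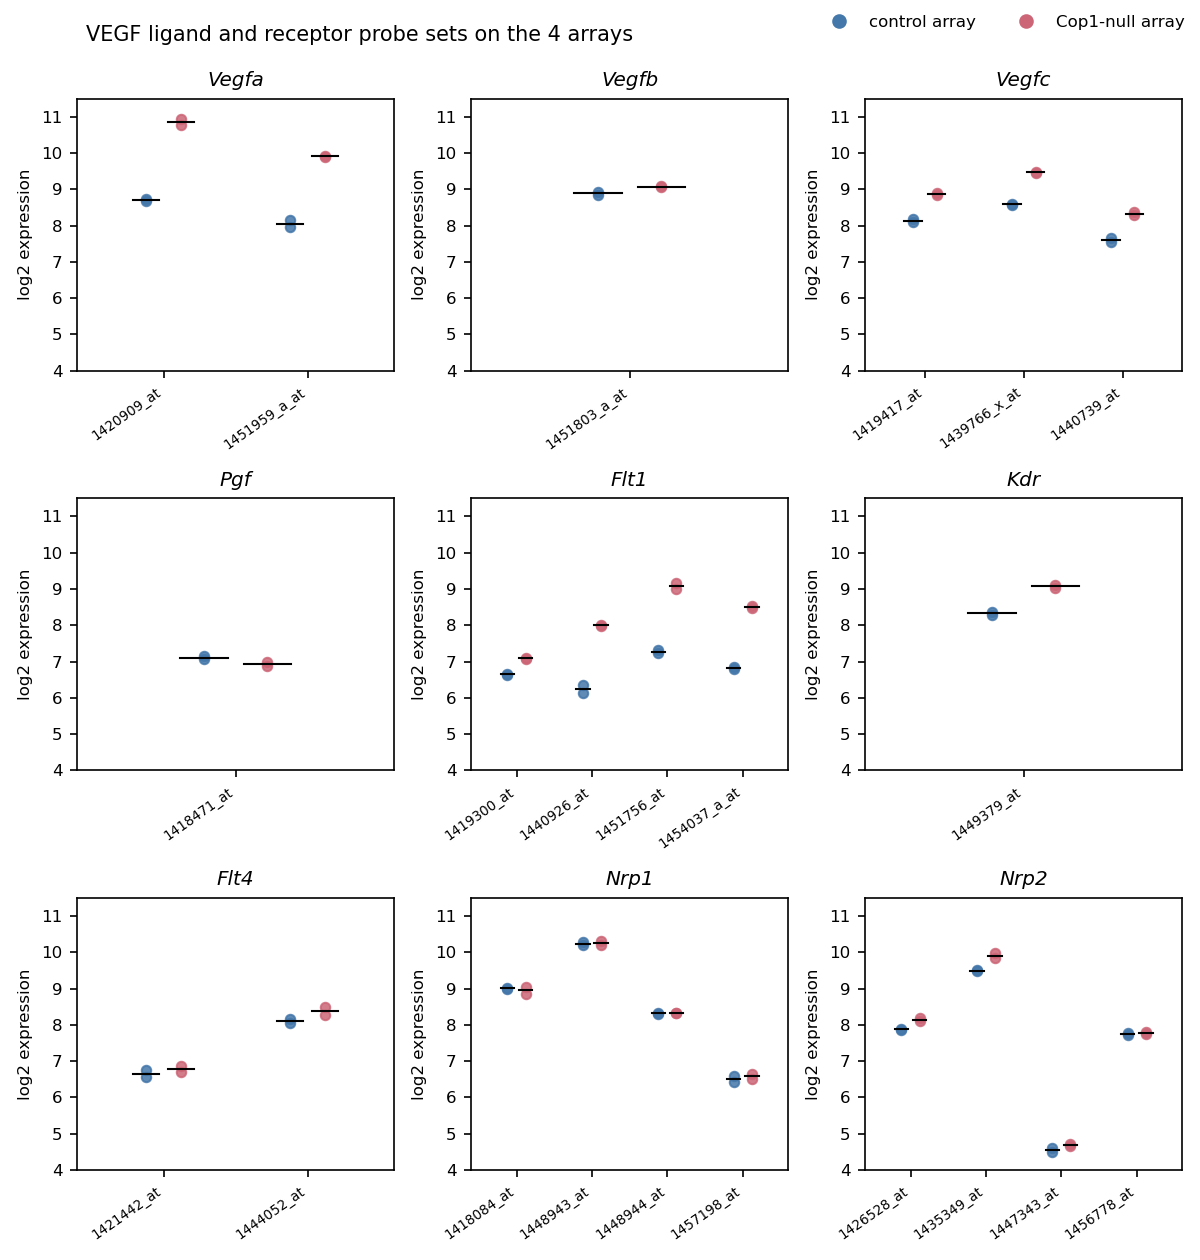
Log2 expression (y axis) of each member probe set (x axis, by probe set identifier) on the 2 control and 2 Cop1-null arrays, in 1 panel per gene; points are arrays and bars are means of the 2 portions. Both Vegfa probe sets, all 3 of Vegfc, the 1 of Kdr and 3 of 4 of Flt1 stand clearly higher on the null arrays, whereas the 4 Nrp1 probe sets overlap.

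Vegfa, which encodes the main growth factor for embryonic vessels and is known as a target of hypoxia-inducible factors, had the largest rise of the family. For its probe set 1420909_at the control arrays read 8.67 and 8.74 and the null arrays 10.95 and 10.77. The group means were 8.70 ± 0.05 and 10.86 ± 0.12 (SD, n = 2 portions), a difference of 2.16 (SE 0.09) or 4.46-fold (limma, adjusted p = 0.000633). The second probe set, 1451959_a_at, gave 7.95 and 8.16 for the controls and 9.88 and 9.93 for the nulls. It rose by 1.85 (SE 0.09), which is 3.61-fold (limma, adjusted p = 0.00077). In Affymetrix naming the suffix _a_at marks probe sets that match several transcripts of the same gene. The gap between the genotypes was thus many times the gap between portions for both probe sets, and among all 45037 probe sets they ranked 140 and 253 by rise. The first exceeded the second by 0.65 in the control mean and by 0.95 in the null mean, and this change of 0.31 (95% interval 0.00 to 0.61) missed the threshold (limma over all probe set pairs, adjusted p = 0.116).

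The promoter sequences of Vegfa and Flt1 are shown because these genes had the greatest rises of the family. Each is the 250 bases before an annotated start in RefSeq (GRCm38.p6), read on the gene's strand, with Vegfa at chr17:46032378-46032627 and Flt1 at chr5:147726012-147726261, both on the minus strand. Capitals mark the GC box GGGCGG on either strand and, in Flt1, the cAMP response element TGACGTCA, which is bound by CREB, ATF and JUN family dimers.
Vegfa: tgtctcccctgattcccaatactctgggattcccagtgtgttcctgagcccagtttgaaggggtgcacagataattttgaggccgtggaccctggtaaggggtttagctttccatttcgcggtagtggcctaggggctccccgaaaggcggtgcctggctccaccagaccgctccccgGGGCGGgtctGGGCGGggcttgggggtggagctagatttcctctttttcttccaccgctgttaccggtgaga
Flt1: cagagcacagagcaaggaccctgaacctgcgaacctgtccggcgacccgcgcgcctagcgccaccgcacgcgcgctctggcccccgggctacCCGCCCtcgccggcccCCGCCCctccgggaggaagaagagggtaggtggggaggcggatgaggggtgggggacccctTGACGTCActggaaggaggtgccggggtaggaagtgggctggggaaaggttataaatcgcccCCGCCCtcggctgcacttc
The motifs were searched on both strands in the 250 bases before all 32851 annotated starts, of which 11 belong to the 9 genes, with 2 each for Vegfa and Pgf. TGACGTCA, which was added after the member sequences had been seen, occurred in 1 member window, that of Flt1, where it begins at position -81, and in 1.55% of all windows. The core of the hypoxia response element, ACGTG, was found in 1 of the 11, the second Vegfa start, against 16.6% of all. That window, chr17:46025164-46025413, lies inside the gene, downstream of the first start. Sites more than 250 bases before a start were not searched. The AP-1 site TGANTCA (6.75% of all) and the ETS site CCGGAAGT (2.88% of all) were found in 0 of the 11. GGGCGG was found in 10 of the 11 and in 32.7% of all. None of the matched stretches overlapped one of another motif. A match in such a window is a description of the sequence and was not tied to the expression values.

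Vegfc, whose product drives lymphatic and venous growth through FLT4, rose on all 3 of its probe sets. The probe set 1439766_x_at gave 8.59 and 8.58 for the controls and 9.45 and 9.48 for the nulls, a difference of 0.88 (SE 0.06) or 1.84-fold (limma, adjusted p = 0.0013). The suffix _x_at marks probe sets whose probes may also bind other transcripts, but the other two probe sets moved alike. The probe set 1419417_at read 8.09 and 8.17 against 8.89 and 8.84, and 1440739_at read 7.55 and 7.65 against 8.37 and 8.29. These are rises of 0.74 and 0.73, each 1.66-fold (limma, adjusted p = 0.00232 and 0.00295). None of the 3 pairs of Vegfc probe sets passed the test of a difference, and the intervals of the pair differences lay between -0.24 and 0.41.

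The other ligand genes had no call. Vegfb, a ligand of FLT1, gave 8.84 and 8.93 for the controls and 9.08 and 9.06 for the nulls. The arrays did not overlap, but the difference was 0.18 (95% interval 0.01 to 0.36, limma adjusted p = 0.107). Pgf, the gene of placental growth factor, was the only member with both null arrays below both control arrays, with readings of 7.14 and 7.07 against 6.87 and 6.98. Its difference was -0.18 (95% interval -0.37 to 0.01, limma adjusted p = 0.135), so both intervals end short of a 1.5-fold change. Both genes have a single probe set here. The remaining VEGF ligand gene, Vegfd, which was placed on the list of receptor partners, had means of 6.14 for the controls and 6.15 for the nulls.

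Among the receptors Flt1 rose furthest. The probe set 1451756_at gave 7.32 and 7.23 for the controls and 9.0 and 9.16 for the nulls, a difference of 1.80 (SE 0.09) or 3.49-fold (limma, adjusted p = 0.000727). The probe set 1440926_at read 6.34 and 6.12 against 8.0 and 7.99, and rose 3.39-fold. The probe set 1454037_a_at read 6.78 and 6.85 against 8.53 and 8.48, and rose 3.23-fold. These 3 probe sets ranked 288, 320 and 361 by rise among all probe sets.

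The fourth Flt1 probe set, 1419300_at, moved much less. It gave 6.66 and 6.64 for the controls and 7.11 and 7.06 for the nulls, a difference of 0.43 (SE 0.06) or 1.35-fold, which lay under the fold limit although its adjusted p was 0.00779 (limma). The difference between probe sets was itself tested within each array, over all 30372 pairs of probe sets of the same gene. Relative to 1419300_at, the difference between genotypes was larger by 1.37 (SE 0.12) for 1451756_at, by 1.33 (SE 0.11) for 1440926_at and by 1.26 (SE 0.10) for 1454037_a_at (limma, adjusted p = 0.000652, 0.000628 and 0.000539). Between the other 3 probe sets the changes differed by 0.04 to 0.11, with intervals from -0.24 to 0.41, and none was called. By mean level over the 4 arrays, which includes the rises, 1419300_at lay at percentile 60.6 of all probe sets and the other 3 at 63.6 to 75.4. In the control mean 1419300_at read 6.65, above 1440926_at (6.23) and below 1454037_a_at (6.81) and 1451756_at (7.28). The part of signal level in the smaller change of 1419300_at was not tested. Which exons, and which of the membrane-bound and soluble transcripts, each probe set reads is not given in the sources used here. Unequal probe sets were common on this array. Of all pairs of probe sets of one gene 20.7% passed this test, while in the VEGF family 3 of 23 pairs did, all of them in Flt1.

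Kdr, the gene of the main signalling receptor, rose on its only probe set. It gave 8.37 and 8.28 for the controls and 9.04 and 9.10 for the nulls, a difference of 0.74 (SE 0.07) or 1.68-fold (limma, adjusted p = 0.0025). With the arrays centred on the poly-A spikes, Kdr (0.55) and the Vegfc probe sets 1419417_at (0.54) and 1440739_at (0.54) lay under the fold limit. Flt4, the receptor gene of lymphatic and early vascular endothelium, had 2 probe sets and no call. The probe set 1444052_at read 8.17 and 8.04 against 8.49 and 8.28, a difference of 0.28 (95% interval 0.02 to 0.54). The other, 1421442_at, had overlapping arrays and a difference of 0.13 (95% interval -0.13 to 0.38). The adjusted p-values were 0.0946 and 0.393 (limma).

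**Figure D2:**
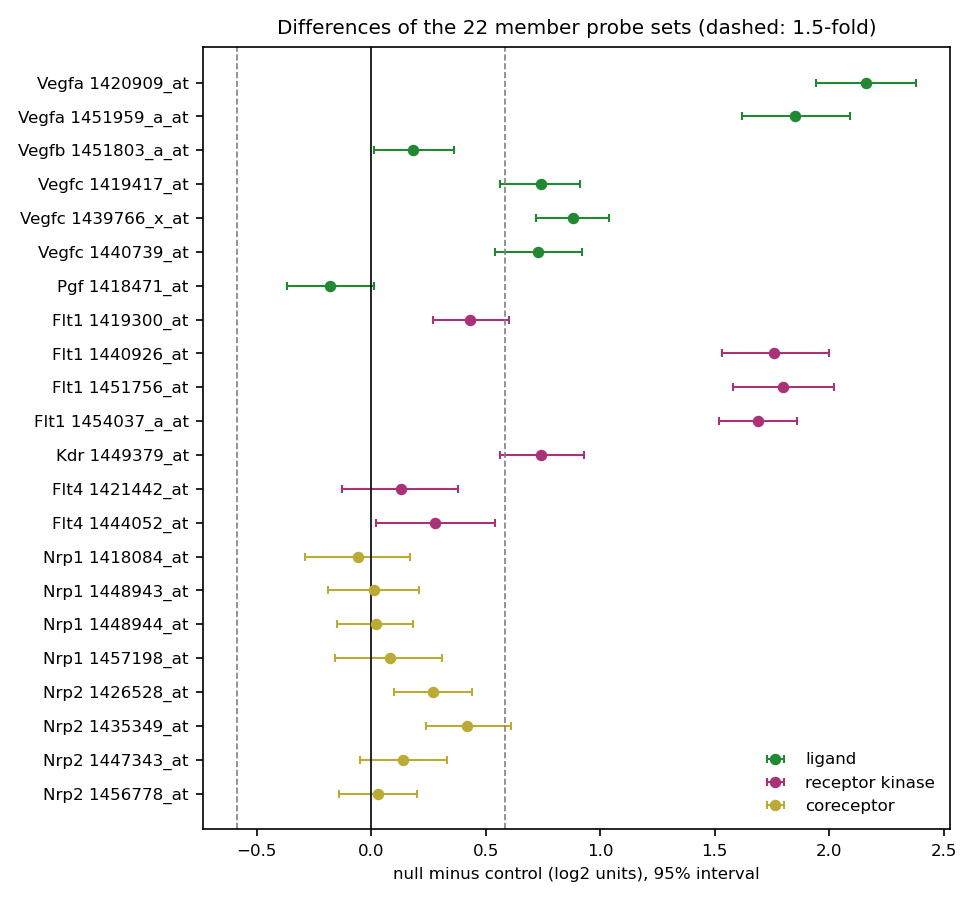
Difference between the null and the control mean (x axis, log2 units) of each of the 22 member probe sets (y axis, gene and identifier), with 95% intervals from limma; dashed lines mark 1.5-fold and colours give the role. Vegfa at 2.16 and 1.85 and 3 Flt1 probe sets at 1.69 to 1.80 stand apart from the Flt1 probe set 1419300_at at 0.43, and all 8 coreceptor probe sets lie between -0.06 and 0.42.

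The coreceptor genes had no called probe set. At an unadjusted p under 0.05 in limma, 2 of their 8 probe sets were higher and 0 were lower, where 20.4% of all probe sets were higher, so the share that was higher lay near the background. The 4 Nrp1 probe sets differed by -0.06, 0.01, 0.02 and 0.08, with array values that overlapped in every case and intervals between -0.29 and 0.31. Nrp1, which encodes a coreceptor for VEGF-A on arterial endothelium and for semaphorin 3A on axons, thus showed no change as large as 1.5-fold within the error of the portions. For Nrp2, a coreceptor for VEGF-C and for semaphorin 3F, the probe set 1435349_at gave 9.48 and 9.5 for the controls and 9.97 and 9.85 for the nulls. Its difference was 0.42 (95% interval 0.24 to 0.61, limma adjusted p = 0.0123), under the fold limit. The probe set 1426528_at was also higher, by 0.27 (limma, adjusted p = 0.0363), while 1447343_at and 1456778_at differed by 0.14 and 0.03. Of these 1447343_at was the dimmest member, at percentile 28 of all probe sets by mean level. The largest disagreement among Nrp2 probe sets, 0.39 between 1435349_at and 1456778_at, had an adjusted p of 0.0428 (limma) but lay under the limit of 1.5-fold.

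**Figure D3:**
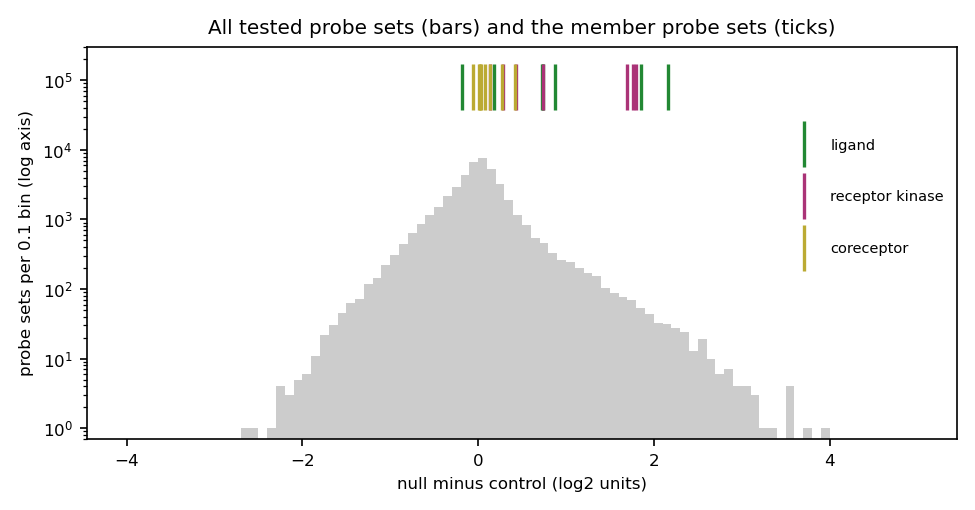
Number of probe sets (y axis, log scale) by difference between the null and control means (x axis, log2 units, bins of 0.1) for all 45037 tested probe sets, with the 22 members as ticks coloured by role. Most coreceptor ticks lie in the dense middle, and the Vegfa and 3 of the Flt1 ticks lie in the thin upper tail.

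Other genes of the pathway were taken from lists, with each gene represented by its brightest probe set. Over all 18193 genes 3.58% rose, 8.06% fell and the median stood at -0.02. Among the relays that carry the signal inside the cell, 33 of 40 listed genes were measured, and 0 rose, 6 fell and 27 had no call, with a median of 0.00. At an unadjusted p under 0.05 (limma) 7 relays were higher and 13 lower, where 16.8% of all genes were higher and 27.5% lower. The largest falls were those of Pik3r2, a regulatory subunit of phosphoinositide 3-kinase (-1.24, SE 0.08), Sos1, an exchange factor that activates RAS (-1.17, SE 0.09), and Akt1, a kinase downstream of phosphoinositide 3-kinase (-0.89, SE 0.07). For Sos1 the other 4 probe sets read 0.35 to 0.41 and none was called. The remaining falls, named after their values were seen, were those of Pik3r1 (-0.72), Pik3ca (-0.69) and Map2k2 (-0.66), and Pik3r1 lost its call without null replicate 2 (-0.69, limma adjusted p = 0.0603). With the median over all probe sets of a gene in place of the brightest one, 3 relays fell.

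Among 24 partners of the receptors, which include semaphorins, plexins, integrins and enzymes that process VEGF-C, 4 rose and 0 fell, with a median of 0.14. At an unadjusted p under 0.05 (limma) 8 were higher and 4 lower. Cav1, the gene of the main protein of caveolae, rose by 1.37 (SE 0.06), Sema3g, a semaphorin gene of arterial endothelium, by 0.81 (SE 0.06) and Itgb3, an integrin subunit gene, by 0.67 (SE 0.12). Without control replicate 2 the difference of Itgb3 (0.51) lay under the fold limit. Without null replicate 1 (0.66) or null replicate 2 (0.67) it kept its size, but the adjusted p was 0.0786 and 0.0821 (limma). The other probe set of Itgb3 differed by -0.02. The fourth, named after its value was seen, was Sema3a (0.59), which lay on the fold limit and under it without control replicate 2 (0.54) or null replicate 1 (0.56), and whose other probe sets differed by -0.25 and 0.08. Without either control replicate 2 or null replicate 1, therefore, 2 of the 24 rose.

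Genes that endothelial cells are known to switch on under VEGF gave 7 rises and 1 fall among 18, with a median of 0.33. At an unadjusted p under 0.05 (limma) 12 were higher and 1 lower. The RNA is from whole embryos, so which cells gave these values is not known. Apln (0.61), named after its value was seen, lay under the fold limit without null replicate 1 (0.53). It also did so with the arrays centred on the median (0.55) or on the poly-A spikes (0.41). Esm1, an endothelial proteoglycan gene, rose from 5.93 to 7.75 (log2 means), or 3.53-fold, Kcne3, a potassium channel subunit gene, rose 2.76-fold and Sox17, a transcription factor gene of arteries, 2.35-fold. The limma adjusted p-values of these 3 genes were 0.000633, 0.000761 and 0.00139. Nrarp, a regulator of Notch signalling, fell (-1.07) and was named after the values were seen. Of the 10 genes of oxygen sensing, which control the factors that act on Vegfa, 2 rose and 2 fell. The prolyl hydroxylase genes Egln3 (2.29) and Egln1 (1.23), themselves known targets of hypoxia-inducible factors, rose, and Arnt2 (-0.74), a dimerization partner, fell. The other 2 Arnt2 probe sets differed by -0.53 and 0.03, and neither was called. The hydroxylase gene Egln2 also fell (-0.71) and was named once the values were known. Hif1a and Epas1, the genes of the oxygen-regulated subunits, differed by -0.34 and -0.01 without a call on their brightest probe sets. The other 3 Hif1a probe sets disagreed in direction, as 1416035_at (-0.73) and 1448183_a_at (-0.60) fell and 1431981_at (1.22) rose. Of these, 1448183_a_at kept its call in 2 of the 4 fits without a single array.

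The receptor kinase genes of this family are expressed mainly in endothelium, and in pooled whole embryos more endothelial cells and more RNA per endothelial cell cannot be told apart. The 22 endothelial markers had mean log2 levels of 8.28 on each control array and of 8.61 and 8.60 on the null arrays. At an unadjusted p under 0.05 (limma) 16 of these markers were higher and 2 lower. By the full rule 5 rose and 1 fell, with a median of 0.43. Quantile normalization once more gave 8 rises and 1 fall, and centring the arrays on the median gave 3 rises and 1 fall. Erg (0.64), named after its value was seen, lay under the fold limit without null replicate 1 (0.54). With the arrays centred on the poly-A spikes, whose means also differed between portions of the same pool, 0 rose and 2 fell, with a median of 0.24. Icam2, an adhesion molecule gene, rose by 0.78, and Pecam1, the gene of a junction protein, by 0.72, and the transcription factor gene Fli1 fell by 0.76 on the log2 scale. Set against the mean of these markers within each array, the Flt1 probe sets other than 1419300_at differed by 1.37 to 1.47, 1419300_at by 0.11 and Kdr by 0.42, while Flt4 differed by -0.20 and -0.05 and the Nrp1 probe sets by -0.39 to -0.25. These relative values are a description without a test. The part of endothelial content in the receptor values was not tested. The 5 lymphatic and venous markers gave 0 calls and a median of -0.06, and at an unadjusted p under 0.05 (limma) 0 were higher and 2 lower. The largest difference was that of the venous receptor gene Ephb4 (-0.49).

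Flt1 and Pgf are also strongly expressed in trophoblast, which a dissection can carry over. The 13 measured markers of trophoblast and decidua of 19 listed had mean levels of 4.74 to 4.76 for the controls and 4.82 to 4.86 for the nulls, and 5 of them lay under the lower quartile of every array. Among them 1 rose, the transcription factor gene Ascl2, and 0 fell, with a median of 0.11. All 3 Ascl2 probe sets rose. The brightest, 1460514_s_at (0.64), lost its call without control replicate 2 (0.45), null replicate 1 (0.54) or null replicate 2 (0.74), and 1422396_s_at (1.09) kept its call in 1 of the 4 fits without a single array. The third, 1432018_at (1.14), kept it in all 4. At an unadjusted p under 0.05 (limma) 2 were higher and 1 lower. Visceral yolk sac markers gave 1 rise and 4 falls among 11 (median -0.11), the falls led by albumin, Alb (-2.09), and the transport protein gene Ttr (-1.53). At an unadjusted p under 0.05 (limma) 3 of them were higher and 5 lower, and the part of yolk sac tissue in these values was not tested. The rise was that of the endocytic receptor gene Cubn (1.45), which lost its call without null replicate 1 (1.42) or null replicate 2 (1.48). Of 9 primitive erythroid markers 2 fell, the transcription factor gene Klf1 (-0.79) and the membrane protein gene Epb42 (-0.68), and 0 rose (median -0.05, 0 higher at an unadjusted p under 0.05 in limma).

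Neuropilins are also genes of neurons and of the cells around them. Early neuron markers were lower, with 10 falls and 0 rises among 12 and a median of -0.87, and at an unadjusted p under 0.05 (limma) 12 were lower and 0 higher. The neurogenic factor genes Neurod4 (-1.63), Neurod1 (-1.29) and Nhlh2 (-1.26) fell furthest. Neural crest and mesenchyme markers held 1 rise, Prrx1 (1.51), and 1 fall, Tfap2b (-1.29), among 10 (median -0.05). For Prrx1, 3 of the other 5 probe sets were called in the opposite direction. Its brightest probe set over the 4 arrays, 1439774_at, had means of 8.90 for the controls and 10.41 for the nulls. On the control arrays 1425528_at was brighter, with a mean of 10.26, and it fell (-1.43). The direction given for Prrx1 thus depends on how its probe set was chosen. The other Tfap2b probe set differed by 0.25 and was not called. The part of neuronal content in the Nrp1 and Nrp2 values was not tested.

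**Figure D4:**
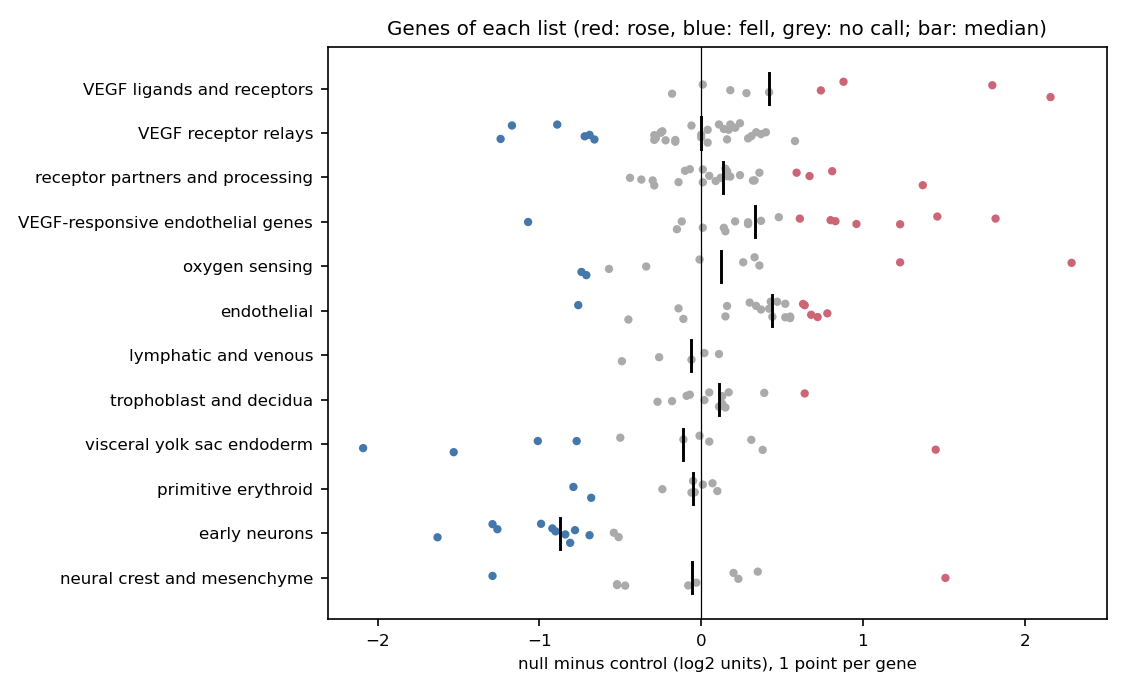
Difference between the null and control means (x axis, log2 units) for the genes of each list (y axis), 1 point per gene by its brightest probe set; red points rose, blue points fell, grey points had no call and black bars are list medians. The VEGF genes have a median of 0.42 with 4 rises, the endothelial list lies mostly to the right of 0 and the early neuron list lies wholly to the left.

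The genes whose values over the 4 arrays lay nearest to those of Vegfa, by Euclidean distance after each gene's own mean was subtracted, were Krt19, a keratin gene (distance 0.08), Pfkfb3, a regulator of glycolysis (0.09), Pde4b, a phosphodiesterase gene (0.14), Tmem45a (0.14) and Plekha2 (0.15). Their differences lay between 2.02 and 2.16. Nearest to Flt1 (1451756_at) were Sat2 (distance 0.07), the nuclear noncoding RNA Neat1 (0.10), Bora, a mitotic kinase cofactor gene (0.13), Ddit3, a stress-induced transcription factor gene (0.13), and Plod2, a collagen hydroxylase gene (0.14). Their differences lay between 1.75 and 1.86. With 2 genotypes and 2 portions of each, nearness says little more than that the genes differed by a like amount.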

How the data were processed

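RNA of the 2 pools was labelled from 5 µg of total RNA per array and hybridised to Affymetrix arrays, per the labels' protocols. The authors deposited log2 expression values from RMA (affy), per the submitters' processing notes. No version is given in the sources used here. RMA forces like distributions on the arrays, so differences in the amount of RNA per embryo cannot be seen. The deposited values were used without further scaling. The 64 control probe sets were left out. Probe sets were named through the platform's annotation table, and 34945 of the 45037 tested have exactly 1 gene. The precision is limited by the number of arrays, and with 1 RNA pool per genotype the variation between embryos was not measured.

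The genotypes were compared with limma 3.58.1 in R 4.3.3 (lmFit, eBayes, two-sided), with Benjamini-Hochberg adjustment over all probe sets. Differences between probe sets of the same gene were formed within each array and fitted likewise over all 30372 pairs. The fits were tested on simulated data. Promoter sequences are from RefSeq (GRCm38.p6).

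The members, the gene lists and the tests were chosen with earlier results of these data known. The text names every member, Cop1, up to 3 called genes per list with the largest difference, or the 1 with the largest difference where none was called, and the 5 genes nearest to Vegfa and to Flt1. Exceptions are stated. Alternatives were leaving out each array, the replicate number as a block, leaving out the dimmest 40% of probe sets, quantile normalization once more, centring on the median or on the poly-A spikes, an intensity trend, and gene medians.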

Additional observations from a re-analysis of the deposited data

How the results depend on the processing

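The 9 rises, 0 falls and 3 differing pairs of the VEGF family were found again without any single array and under the other alternatives that keep probe sets apart, except that centring on the poly-A spikes left 6 rises. With gene medians 4 of the 9 genes rose and 0 fell. Under the spike centring the median over genes went from -0.02 to -0.22. This centring put Kdr (0.55) and Vegfc 1419417_at (0.54) and 1440739_at (0.54) under the fold limit. It left 0 of 22 endothelial markers called as rises, and Vegfa and the 3 rising Flt1 probe sets kept their calls. Values near 0 changed sign. With spike centring these were Flt4 1421442_at (-0.07), Vegfb (-0.01), Nrp2 1447343_at (-0.06) and 1456778_at (-0.16), and Nrp1 1448943_at (-0.19), 1448944_at (-0.18) and 1457198_at (-0.12). With median centring they were Nrp1 1448943_at (-0.05) and 1448944_at (-0.05) and Nrp2 1456778_at (-0.03). With quantile normalization Nrp1 1418084_at stood at 0.00, and with gene medians Nrp1 at -0.02. Without single arrays the Nrp1 probe sets ranged from -0.16 to 0.04 (1418084_at), -0.05 to 0.07 (1448943_at), -0.01 to 0.04 (1448944_at) and -0.01 to 0.16 (1457198_at). Receptor partners had 2 rises and 1 fall with spike centring, 2 rises with gene medians and 2 to 4 without single arrays. Relays had 3 falls with gene medians, 1 rise with quantile normalization and 0 to 1 without single arrays. The causes were not tested. The replicate number as a block gave 9 rises and changed no call of a member, and deviations of same-numbered arrays had a correlation of 0.056. With 2 portions per pool these values cannot show whether same-numbered arrays were processed together.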
